A study of Mus musculus with 15 samples.

Results

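The genes described are 10 members of the insulin-like growth factor (IGF) system in mouse: the receptors Igf1r, Igf2r and Insr and the binding protein genes Igfbp1, Igfbp2, Igfbp3, Igfbp4, Igfbp5, Igfbp6 and Igfbp7. They were chosen by name, as the probes whose gene name in the scanner output was one of these symbols, which gave 18 of 41174 probes for 10 of 27343 named genes. The readings came from 15 Agilent 1-colour arrays of liver cells. Expandable hepatocytes had been grown for 21 days in an expansion medium (eHep, 7 arrays) or in a differentiation medium (mHep, 7 arrays), as far as the labels tell, since they do not spell out the name mHep. The cultures came from 3 mice: 129S1-No1 of strain 129S1 with 3 arrays in each medium, C57B6-No1 of strain C57B6 with 3 arrays in each medium, and 129S1-No2 of strain 129S1 with 1 array in each. The reference was 1 array of primary hepatocytes of C57B6 mice, freshly isolated by collagenase perfusion. No genotype, age or drug treatment was given for any group. One label disagreed: 129S1-No2's mHep array has a source name that reads eHep, and its title decided the group. Nothing in the labels says whether repeat arrays of a mouse were separate cultures, so tests between arrays of a mouse measure only the spread between these arrays.

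IGF1, IGF2 and insulin signal through the receptor tyrosine kinases encoded by Igf1r and Insr, while the receptor encoded by Igf2r clears IGF2 and carries lysosomal enzymes tagged with mannose 6-phosphate. The secreted proteins encoded by Igfbp1 to Igfbp6 bind IGFs with high affinity and set how much of the ligand reaches its receptor, whereas the protein of Igfbp7 binds IGFs weakly. Adult hepatocytes are known as a main source of circulating IGF1 and of the proteins of Igfbp1 and Igfbp2, and they carry abundant insulin receptor and little IGF1 receptor. Transcription of Igfbp1 in liver is held down by insulin through FOXO1 and raised by fasting.

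All levels below are log2 processed signals minus the log2 of their own array's 75th percentile. A reading is "dim" where the scanner did not call it well above background. The share of probes well above background was 48.8% to 61.8% in culture and 36.2% on the primary array, where the 75th percentile lay at an intensity of 78.3 against 249 to 827 in culture, so low readings carry more error on the primary array. Of 9 measured hepatocyte markers, 9 were well above background on the primary array and 7 on all mHep arrays, but only 3 on all eHep arrays, and Ttr, Cps1 and Cyp2e1 were dim on all 7 of the eHep arrays. The summed hepatocyte marker signal was 1.69 to 28.9 times the 75th percentile in eHep, 357 to 1558 times in mHep and 9037 times in primary cells. Biliary markers summed to 270.3 to 622 times in eHep, 151 to 854 times in mHep and 7.49 times in primary cells. Fewer cells of a type and less RNA per cell cannot be told apart in such bulk samples. By the year of their scan date the arrays fell into 2 groups, called the earlier and the later scan here. Whether each was a single scanning run was not examined. The earlier scan held the 2 arrays of 129S1-No2, array 2-3 of C57B6-No1 in each medium and the primary array. All other cultured arrays made up the later scan. Feature Extraction versions split the same way, with 10.7.1.1 for the earlier scan and 10.7.3.1 for the later.

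Sequences before the start of transcription are given for the member with the clearest difference between the media and, beside it, for another member that was high in primary cells only. Both are the 250 bases before the start on the gene's own strand, from RefSeq in the GRCm38.p6 build, with Igfbp1 at chr11:7197537-7197786 on the plus strand and Igfbp2 at chr1:72824230-72824479 on the plus strand. Capitals mark, in order, the letters CAAAACAA and TTATTTTG of the insulin response element and a match to the HNF1 motif.
Igfbp1: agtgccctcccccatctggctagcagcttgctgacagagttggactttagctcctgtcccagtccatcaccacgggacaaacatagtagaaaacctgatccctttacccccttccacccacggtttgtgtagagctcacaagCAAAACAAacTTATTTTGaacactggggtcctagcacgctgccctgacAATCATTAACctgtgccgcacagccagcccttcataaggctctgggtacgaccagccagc
Igfbp2: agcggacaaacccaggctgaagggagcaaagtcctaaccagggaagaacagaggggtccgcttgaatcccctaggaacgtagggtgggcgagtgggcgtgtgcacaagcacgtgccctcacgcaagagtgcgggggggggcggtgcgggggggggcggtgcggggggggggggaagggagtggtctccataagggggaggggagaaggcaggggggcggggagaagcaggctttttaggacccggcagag
The pair of insulin response letters lay at positions -108 to -101 and -98 to -91 from the start of Igfbp1, and the HNF1 match at -60 to -51. On both strands, CAAAACAA was found in 2.21% of 32851 windows of this length, CAAAATAA (the reverse complement of TTATTTTG) in 1.49% and both together in 0.07%, or 23 windows of 22 genes. The HNF1 motif was found in 0.371% of the windows. A window was given for 9 of the 10 members, not for Insr, and no other member window held either insulin response motif, the HNF1 motif or the FOXO letters GTAAACA (3.17% of all windows). GC boxes (GGGCGG, 32.7% of all windows) lay in the windows of Igf1r, Igf2r, Igfbp2 and Igfbp7. A TATAAA (12.4%, both strands) lay at -28 to -23 of Igfbp4. In Igfbp6 it was found only on the opposite strand, at -148 to -143. G and C made up 53.2% of the Igfbp1 window, against 49.6% for Igfbp6, the lowest of the members, and 77.6% for Igf1r, the highest. These matches are descriptions of the letters in these windows.

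Each array reading rests on a probe of 60 bases, and a probe each is shown for Igfbp2 and Igfbp3.
Igfbp2: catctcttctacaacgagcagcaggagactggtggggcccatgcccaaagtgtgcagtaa
Igfbp3: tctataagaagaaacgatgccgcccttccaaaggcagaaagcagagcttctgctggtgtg
The Igfbp2 probe (NM_008342) was placed by the files at chr1:72898677-72898736 in the mm9 build. The Igfbp3 probe (X81581) was placed at chr11:7108469-7109478, a span longer than the probe. The other Igfbp3 probes lay at chr11:7106594-7106653 (NM_008343), which stood for the gene in the fits as the brightest, and at chr11:7111815-7111874 (AK045003). Igfbp1 was read at chr11:7102442-7102501 (NM_008341), Igfbp7 at chr5:77778355-77778414 (NM_008048), Igf1r at chr7:75376998-75377057 (NM_010513) and Insr at chr8:3151667-3151726 (NM_010568). In the RefSeq gene order Igfbp1 neighbours Igfbp3 and Igfbp2 neighbours Igfbp5, and the promoter windows put Igfbp1 and Igfbp3 on opposite strands.

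**Figure D1:**
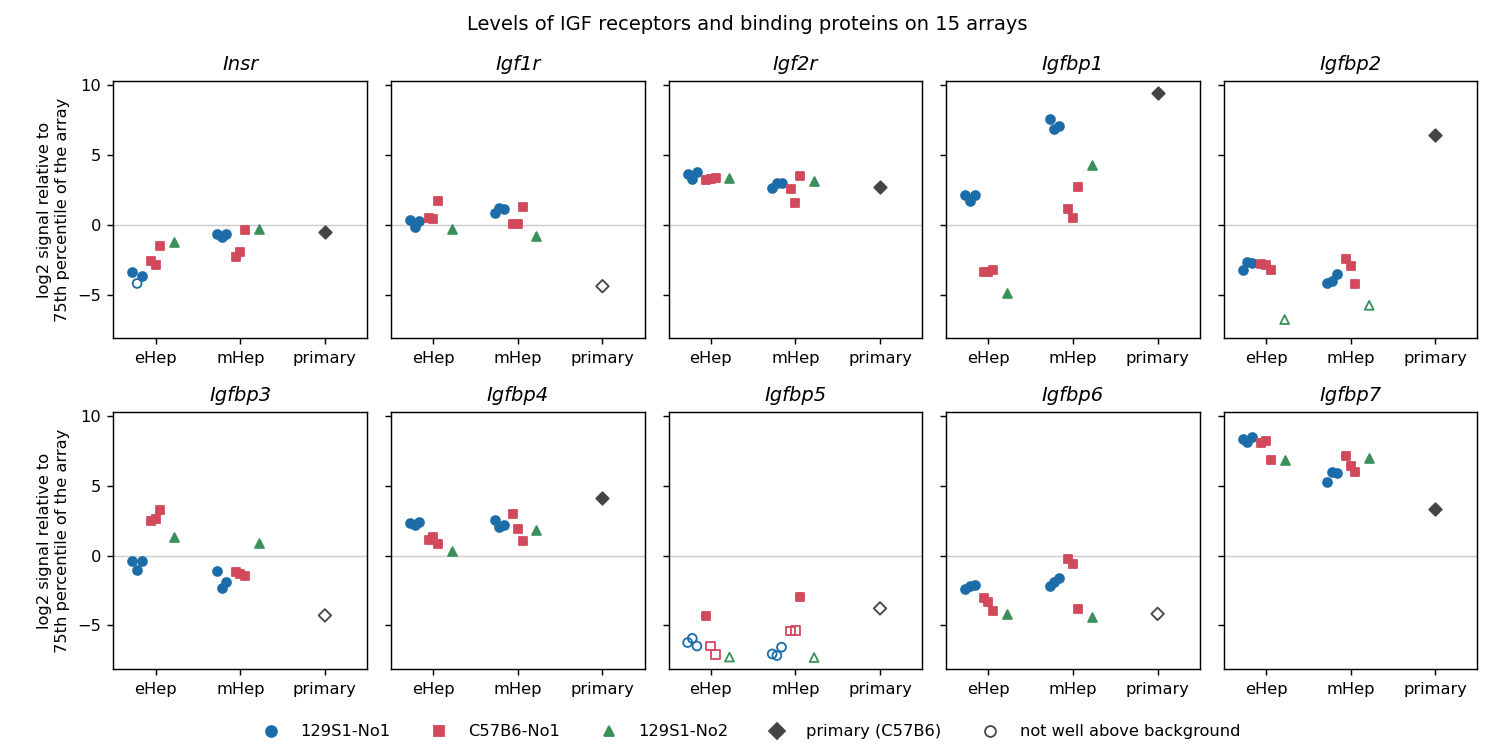
Log2 level of each member on each array, with the array's 75th percentile at 0, by medium (x axis) and mouse (marker). Open markers are readings not well above background. Igfbp1 was higher in mHep than in eHep within each mouse, and Igfbp2 on the primary array (6.45) lay above all 14 cultured arrays.

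Growing the cells in differentiation medium was compared with expansion medium within the 3 mice. Igfbp1, whose secreted protein binds IGF1 in the circulation, rose 83.0-fold, with a log2 difference of 6.38 ± 0.89 (SE, 95% interval 4.20 to 8.55, limma adjusted p = 0.0317, n = 3 mice). It was the only one of the 9 members tested that passed an adjusted p of 0.05. Over all 14593 genes tested, 1.83% passed, 1.38% higher and 0.452% lower in mHep, so 1 call among 9 members is a small count. The median difference of the members was 0.03, against -0.10 over all genes tested. For no member did the 7 mHep and the 7 eHep arrays lie wholly apart, which 2.75% of the genes tested did upwards and 2.86% downwards.

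Igfbp1 was well above background on all 15 arrays. Its eHep levels ran from -4.92 over a median of -3.22 to 2.15, its mHep levels from 0.47 over 4.26 to 7.54, and the primary array read 9.45. The ranges of the media overlapped only because the mice differed, since within each mouse every mHep array lay above every eHep array. In 129S1-No1 the 3 eHep arrays read 2.15, 1.67 and 2.15 and the 3 mHep arrays 7.54, 6.83 and 7.10. In C57B6-No1 the eHep arrays read -3.42, -3.38 and -3.22 and the mHep arrays 1.16, 0.47 and 2.73. In 129S1-No2 the level went from -4.92 to 4.26. The change was thus 9.17 in 129S1-No2, against 5.17 in 129S1-No1 and 4.79 in C57B6-No1. With arrays of the earlier scan alone the difference was 7.56 (adjusted p = 3.29e-05), with those of the later scan 4.69 (adjusted p = 0.00219), and with mouse and slide as blocks on the 14 arrays 5.59. The call was kept under 29 of 33 alternatives (adjusted p from 3.98e-12 to 0.433), and was lost with quantile normalization (6.54, adjusted p = 0.0733), with the value table of the authors (6.54, adjusted p = 0.0732), with scaling on the probes detected on all arrays (6.49, adjusted p = 0.0749) and without the mouse block (adjusted p = 0.433).

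Hepatocyte markers moved with Igfbp1 between media but only in part between mice, and their part in the result was not tested. Their summed signal in eHep was 25.7 to 28.9 times the 75th percentile in 129S1-No1, 2.63 times in 129S1-No2 and 1.69 to 5.18 times in C57B6-No1. In mHep the sums were 1097 to 1558 times, 357 times and 367 to 473 times in the same order. 129S1-No1, the mouse with the highest Igfbp1 in both media, also had the highest sums. In mHep the other mice did not keep this order. Igfbp1 was higher in 129S1-No2 (4.26) than in C57B6-No1 (0.47 to 2.73), while the marker sum of 129S1-No2 was slightly lower. The genes whose levels followed Igfbp1 most closely over the 14 cultured arrays, among 10296 genes well above background on all of them, were Cyp2c70 (r = 0.973), Hadhb (r = 0.972) and Pbld2 (r = 0.969). Cyp2c70 encodes a cytochrome P450 of bile acid metabolism and Hadhb a subunit of the mitochondrial trifunctional protein of fatty acid oxidation. These 14 arrays came from 3 mice, so the correlations are descriptions.

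Insr, the insulin receptor gene, had a log2 difference of 1.57 ± 0.55 that did not pass (95% interval 0.22 to 2.93, adjusted p = 0.267). Its eHep levels ran from -4.20 over -2.90 to -1.20 and its mHep levels from -2.29 over -0.69 to -0.30, and the primary array read -0.53. The medians stood apart while the ranges overlapped. In 129S1-No1 the eHep arrays read -3.41, -4.20 (dim) and -3.67 and the mHep arrays -0.68, -0.88 and -0.69. The difference within that mouse was 3.01, and the groups did not overlap, while in C57B6-No1 it was 0.80 and in 129S1-No2 0.90. Another Insr probe, at chr8:3159473-3159532, was dim on all eHep arrays and on 5 of the 7 mHep arrays and gives no second reading of the change.

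Igf1r, the IGF1 receptor gene, had a difference of 0.03 ± 0.45 (95% interval -1.07 to 1.12, adjusted p = 0.990). It ran from -0.33 over 0.32 to 1.69 in eHep and from -0.78 over 0.82 to 1.29 in mHep, so that the ranges nearly coincided. The mice went different ways, with -0.38 in C57B6-No1, -0.45 in 129S1-No2 and 0.91 in 129S1-No1. The other bright Igf1r probes gave differences of 0.0032 and -0.34, and the remaining probe (AK044980) was dim on most eHep arrays and was not tested. Igf2r was well above background on every array. Its levels ran from 3.24 over 3.36 to 3.75 in eHep and from 1.53 over 2.99 to 3.51 in mHep. Its difference of -0.55 ± 0.38 did not pass (95% interval -1.48 to 0.38, adjusted p = 0.563) but had the same sign in the 3 mice.

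Igfbp3, whose protein is the main IGF carrier of the circulation, had a difference of -1.90 ± 0.75 that did not pass (adjusted p = 0.317). The eHep levels ran from -1.0 over 1.36 to 3.27 and the mHep levels from -2.28 over -1.33 to 0.94. The highest eHep readings were those of C57B6-No1, at 2.48, 2.60 and 3.27, and its mHep arrays read -1.15, -1.33 and -1.49. The change was -4.11 in that mouse, -1.16 in 129S1-No1 and -0.43 in 129S1-No2. All 3 Igfbp3 probes gave a lower mean in mHep in each mouse, with differences of -1.90, -1.87 and -2.58. Over the 14 arrays Igfbp3 and its neighbour Igfbp1 had r = -0.79, a description over arrays of 3 mice, and the genes most like Igfbp3 were Pmepa1 (r = 0.950), Txnrd3 (r = 0.943) and Cnnm4 (r = 0.939). Pmepa1 is known as a target and inhibitor of TGF-beta signalling.

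Igfbp7 had a difference of -1.22 ± 0.58 that did not pass (adjusted p = 0.401). Its eHep levels ran from 6.84 over 8.10 to 8.50 and its mHep levels from 5.28 over 6.02 to 7.14. It went down by 2.59 in 129S1-No1 and by 1.19 in C57B6-No1, while 129S1-No2 read 6.86 in eHep and 6.99 in mHep. Mesothelial markers moved with it in 129S1-No1, where their sum was 316 to 384 times the 75th percentile in eHep and 9.25 to 23.7 times in mHep. In C57B6-No1 that sum was 232 to 366 times in eHep and 147 to 292 times in mHep, and in 129S1-No2 it was 77.4 and 122 times. Of the 6 mesothelial markers 1 stood well above background on every array of both media, and Wt1 was dim on all of them. Other sums were also lower in mHep of 129S1-No1: the biliary sum went from 525 to 622 times in eHep to 151 to 205 times, the endothelial sum from 5.62 to 6.99 times to 2.42 to 2.45 times, and the macrophage sum from 2.27 to 2.91 times to 0.764 to 1.02 times. In C57B6-No1 the biliary sum was instead 293 to 479 times in eHep and 543 to 854 times in mHep. The part of these markers in the Igfbp7 values was not tested. The genes most like Igfbp7 over the cultured arrays were Smyd3 (r = 0.975), Acy1 (r = 0.973) and Tbrg1 (r = 0.972).

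Igfbp4, whose protein inhibits IGF action until proteases cleave it, had a difference of 0.80 ± 0.45 that did not pass (adjusted p = 0.477). It ran from 0.30 over 1.32 to 2.37 in eHep and from 1.04 over 2.03 to 2.96 in mHep, and its other probe gave 0.94. By mouse the change was 1.55 in 129S1-No2, 0.88 in C57B6-No1 and -0.02 in 129S1-No1. Igfbp6, whose protein prefers IGF2, had a difference of 0.69 ± 0.51 (adjusted p = 0.602), with levels from -4.21 over -3.0 to -2.13 in eHep and from -4.39 over -1.92 to -0.23 in mHep. The high mHep readings were arrays 2-1 and 2-2 of C57B6-No1, at -0.23 and -0.60. The mHep array 2-3 of the same mouse, from the other scan, read -3.79. Igfbp2 had a difference of -0.08 ± 0.50 (95% interval -1.30 to 1.15, adjusted p = 0.968), with eHep levels from -6.78 over -2.85 to -2.69 and mHep levels from -5.76 over -4.04 to -2.45. The lowest reading in each medium was that of 129S1-No2, and both were dim. Both Igfbp5 probes were dim on nearly all arrays, with 1 eHep and 1 mHep array of C57B6-No1 well above background on the brighter probe, and the gene was not tested. The genes most like Igfbp4 were Ppdpf (r = 0.969), Agpat2 (r = 0.956) and Gstm4 (r = 0.947), and those most like Igfbp6 were Gpx1 (r = 0.916), H2ac18 (r = 0.899) and Dnaic1 (r = 0.893). Those most like Igf2r were Sipa1l3 (r = 0.934), Nup214 (r = 0.897) and Psat1 (r = 0.890), and those most like Igf1r were Cldn12 (r = 0.851), Srrm4 (r = 0.851) and Tspan12 (r = 0.830).

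**Figure D2:**
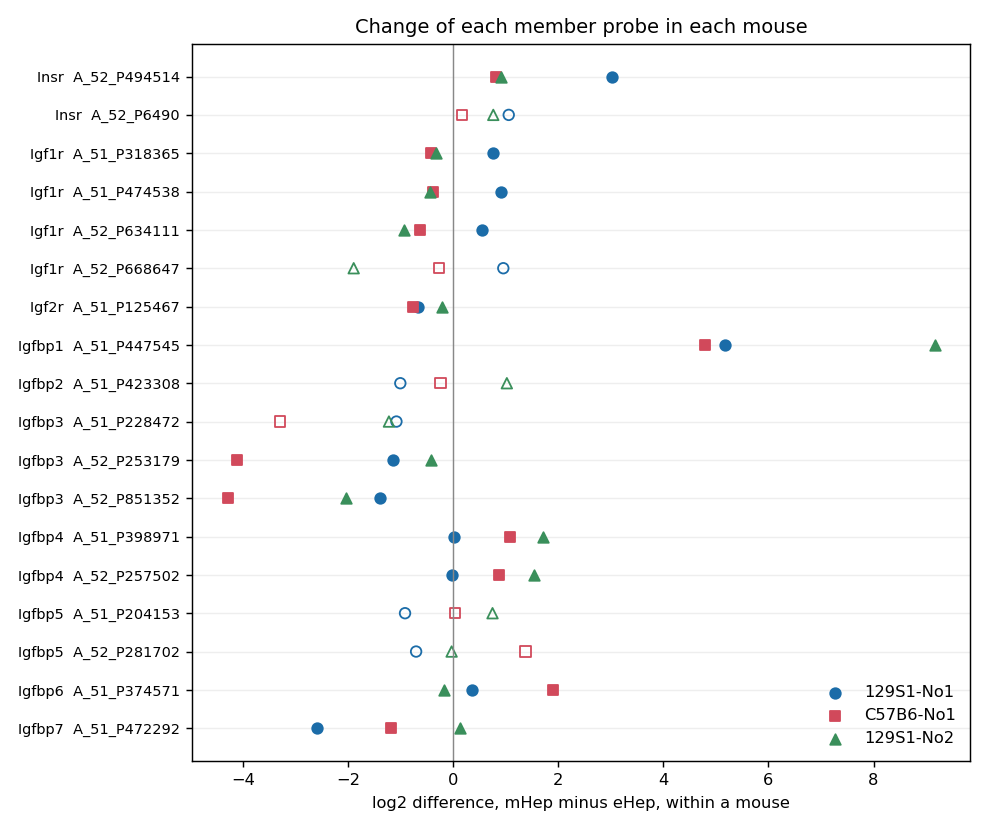
Difference of mHep minus eHep on the log2 scale within each mouse, for each of the 18 member probes (rows). Filled markers are probes that were well above background throughout the 7 arrays of 1 medium or of both. The 3 Igfbp3 probes lay below 0 in each mouse and the Igfbp1 probe above 4 in each mouse.

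The mouse C57B6-No1 and the mouse 129S1-No1 had 3 arrays in each medium, which allowed the changes to be tested within a mouse and set against each other over 13020 genes. The p-values measure only the spread between arrays of a mouse, and mouse and strain cannot be told apart. In 129S1-No1 all eHep arrays lay on slide 3 and all mHep arrays on slide 4, so medium and slide cannot be told apart there. A slide block for that mouse rests on eHep arrays 2-1 and 2-2 of C57B6-No1, which lay on slides 3 and 4. In C57B6-No1 only array 2-3 shared a slide between the media. Within 129S1-No1, 4 of 9 members passed, where 47.2% of all genes did (16.3% higher and 30.9% lower). Igfbp1 rose by 5.17 (adjusted p = 1.08e-05) and Insr by 3.01 ± 0.48 (adjusted p = 0.000600), while Igfbp7 fell by 2.59 (adjusted p = 0.000450) and Igfbp3 fell by 1.16 (adjusted p = 0.0154). Within C57B6-No1, 3 of 9 passed, where 28.2% of all genes did (12.7% higher and 15.6% lower). Igfbp1 rose by 4.79 (adjusted p = 2.60e-05), Igfbp3 fell by 4.11 (adjusted p = 7.28e-06) and Igfbp7 fell by 1.19 (adjusted p = 0.0416). Both shares are near those of all genes. The falls of Igfbp3 in 129S1-No1 and of Igfbp7 in C57B6-No1 were the calls that did not hold. With slide as a block they were -1.28 (adjusted p = 0.144, over 18 alternatives 0.0054 to 0.238) and -0.87 (adjusted p = 0.215, over 18 alternatives 0.00491 to 0.215). The Igfbp3 call was lost without eHep array 1-1 or 1-3 or mHep array 1-2 or 1-3 (-0.89 to -1.08), and the Igfbp7 call without any of 9 of the 12 arrays, namely all but eHep 2-3 and mHep 1-1 and 2-1 (-0.93 to -1.19).

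The changes themselves differed between these mice for 2 of 9 members, where 17.1% of all genes differed (5.75% higher and 11.3% lower in 129S1-No1). Igfbp3 fell less in 129S1-No1, with a difference of the changes of 2.95 ± 0.47 (adjusted p = 0.00238), which passed under all 18 alternatives tried (adjusted p from 0.000752 to 0.0283). Insr rose more in 129S1-No1, by 2.21 ± 0.67 (adjusted p = 0.0444). That call was kept under 5 of 18 alternatives (adjusted p from 0.00186 to 0.207). Leaving out mHep array 2-3 (2.78) or eHep array 2-2 (2.49) kept it, and leaving out any other of the 12 arrays lost it (1.80 to 2.38). Array 2-3 of C57B6-No1 belonged to the earlier scan in both media. For Igfbp1 the changes differed by 0.38 ± 0.65 (95% interval -1.04 to 1.80, adjusted p = 0.687).

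Levels within a medium also differed between the mice, a comparison added after the values were seen. In eHep, Igfbp1 was higher in 129S1-No1 than in C57B6-No1 by 5.33 ± 0.46 (adjusted p = 1.27e-05) and Igfbp4 by 1.19 ± 0.39 (adjusted p = 0.0403). Igfbp3 was lower in 129S1-No1, with a difference of -3.38 ± 0.33 (adjusted p = 3.14e-05), as was Insr (-1.42 ± 0.48, adjusted p = 0.0444). These were 4 of 9 members, where 28.7% of all genes differed (16.5% higher and 12.2% lower). In mHep only Igfbp1 differed, by 5.71 ± 0.46 (adjusted p = 7.08e-06), where 25.9% of all genes did (10.5% higher and 15.4% lower). The eHep level of Igfbp1 in 129S1-No2, -4.92, lay on the side of C57B6-No1 and not of the other 129S1 mouse, and so did its Igfbp3 level of 1.36 and its Insr level of -1.20.

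Cultured cells were then set against freshly isolated hepatocytes, with the 1 primary array taken to vary like the cultured means. This fit had no mouse block, so the eHep and mHep means of a mouse counted as separate samples. A gene was called at an adjusted p under 0.05 and a log2 difference of at least 1. Of 9 members tested, 4 were called between eHep and primary cells, 2 higher and 2 lower in eHep, where 15% of 15164 genes were (5.61% higher and 9.4% lower). Between mHep and primary cells 2 were called, 1 higher and 1 lower, where 9.99% of all genes were (4.02% higher and 5.97% lower). Both comparisons share the primary array. The median difference of the members was 0.70 for eHep and 0.14 for mHep, against -0.19 and -0.34 over all genes.

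Igfbp2, a liver-secreted binding protein, was called lower in culture in both media. The primary array read 6.45, while the highest cultured array read -2.45. It was lower in eHep by a log2 difference of -10.67 ± 1.69 (adjusted p = 0.00935) and in mHep by -10.75 ± 1.69 (adjusted p = 0.0119). The cultured readings of 129S1-No2 were dim, and with each dim reading raised to the background limit, the lowest well-above signal of its array, the differences were -10.38 and -10.57. In mHep the call was lost without C57B6-No1 (-11.29, adjusted p = 0.0646, over alternatives 0.000197 to 0.0646).

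Igfbp1 was lower in eHep than in primary cells, with a difference of -11.53 ± 2.94 (adjusted p = 0.0447), and in mHep it read -5.16 ± 2.94 (95% interval -12.18 to 1.87, adjusted p = 0.299). None of the 14 cultured arrays reached the primary reading of 9.45, and the nearest were the mHep arrays of 129S1-No1 at 6.83 to 7.54. The eHep call was kept under 9 of 13 alternatives (adjusted p from 6.66e-05 to 0.124) and was lost without C57B6-No1 (-10.91, adjusted p = 0.124) or without 129S1-No2 (-10.12, adjusted p = 0.107). Igfbp4 was 4.10 on the primary array, above all 14 cultured arrays, with differences of -2.88 ± 0.80 in eHep (adjusted p = 0.0580) and -2.08 ± 0.80 in mHep (adjusted p = 0.154) that did not pass. The eHep difference passed under 5 of 13 alternatives (adjusted p from 0.0147 to 0.256) and the mHep difference under 1 of 13 (adjusted p from 0.0354 to 0.426). The other Igfbp4 probe gave -3.59 in eHep, which passed in the test over all probes (adjusted p = 0.0370), and -2.65 in mHep, which did not (adjusted p = 0.108). Hepatocyte markers moved with these members: 9 of 9 were lower in eHep and 1 of 9 in mHep by the same rule, with a part in the values above that was not tested.

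Igfbp7 stood higher in culture. It read 3.33 on the primary array and at least 5.28 on each cultured array, and rose by 4.30 ± 0.78, or 19.6-fold, in eHep (adjusted p = 0.0148). In mHep the difference of 3.08 ± 0.78 did not pass (adjusted p = 0.0560) but did under 9 of 13 alternatives (adjusted p from 0.0152 to 0.270). The eHep call was lost without C57B6-No1 (4.26, adjusted p = 0.112, over alternatives 0.00325 to 0.112). The sums of mesothelial and biliary markers were also higher on every cultured array than on the primary array. The biliary sum was 270 to 622 times the 75th percentile in eHep, 151 to 854 times in mHep and 7.49 times in primary cells. The mesothelial sum was 77.4 to 384 times the 75th percentile in eHep, 9.25 to 292 times in mHep and 0.309 times in primary cells, where all 6 of its markers were dim. The stellate and fibroblast sum was 15.3 to 33.6 times in eHep, 17.5 to 31.1 times in mHep and 18.9 times in primary cells, with Des, Pdgfra, Pdgfrb and Lum dim on all 15 arrays. Endothelial and macrophage sums were highest on the primary array, at 21.8 and 14.2 times, against at most 7.20 and 2.91 times in culture. The part of these cells in the Igfbp7 values was not tested.

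Igf1r was dim on the primary array for each of its 4 probes and well above background on all 14 cultured arrays for 3 of them. The fit gave 4.62 ± 0.85 in eHep (adjusted p = 0.0156) and 4.65 ± 0.85 in mHep (adjusted p = 0.0208). The primary reading of -4.40 lay under the background limit of that array, -2.12. Dim probes could also read above that limit, as Fbxo32 did at -2.02. The change is given as at least 5.06-fold in eHep and at least 5.16-fold in mHep, which are not strict bounds. These values are those of the brightest probe. Another bright probe gave 3.55 in each medium, and a dimmer one only 1.05 in eHep and 0.71 in mHep. The cultured means of the dimmer probe, -2.98 and -3.32, lay under the background limit, so it gives no fold. With dim readings raised to that limit, an alternative added after the values were seen, neither difference passed (2.34, adjusted p = 0.113, and 2.37, adjusted p = 0.123). Over alternatives the adjusted p ran from 0.00173 to 0.178 in eHep and from 0.00306 to 0.218 in mHep, and without C57B6-No1 it was 0.108 and 0.130. Without 129S1-No1 the mHep call was also lost, narrowly (4.24, adjusted p = 0.0514).

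Igfbp3 was dim on the primary array as well, at -4.28. It was at least 9.85-fold higher in eHep (5.46 ± 1.49, adjusted p = 0.0537) and at least 2.65-fold higher in mHep (3.57 ± 1.49, adjusted p = 0.179), and neither passed. Under 8 of 13 alternatives the eHep difference passed (adjusted p from 8.16e-05 to 0.203), and under 3 of 13 the mHep difference (adjusted p from 0.00396 to 0.669). The background limit of the primary array, -2.12, lay below 13 of the 14 cultured readings and above that of mHep array 1-2, -2.28. The other 2 Igfbp3 probes were dim on the primary array too and gave 1.63 and 2.30 in eHep but -0.24 and -0.27 in mHep. Igfbp6 was dim on the primary array at a limit above its cultured means, so no fold is given. Igf2r differed by 0.70 ± 0.52 in eHep (95% interval -0.56 to 1.95, adjusted p = 0.417) and by 0.14 ± 0.52 in mHep (95% interval -1.11 to 1.39, adjusted p = 0.887). Insr differed by -1.90 ± 1.02 in eHep (adjusted p = 0.258) and by -0.33 ± 1.02 in mHep (adjusted p = 0.864), and the latter turned sign to 0.15 with median scaling and 0.25 with scaling on the probes detected on all arrays. The primary level of Insr, -0.53, lay above all 7 eHep arrays and 5 of 7 mHep arrays.

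**Figure D3:**
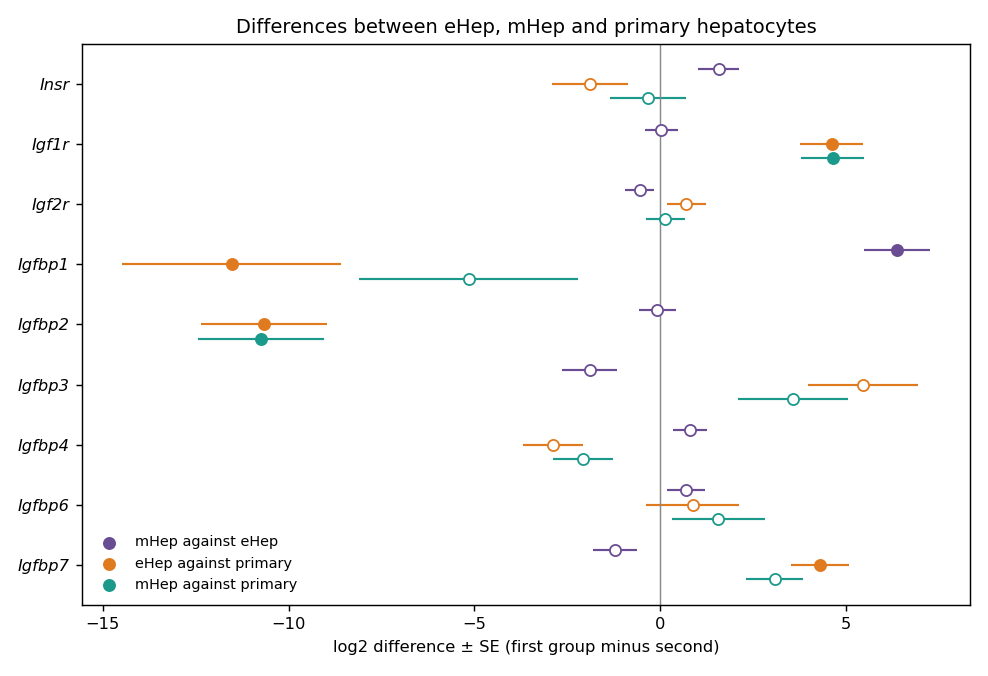
Log2 difference ± SE of the 9 members tested, for mHep against eHep, eHep against primary and mHep against primary. Filled points passed the rule of the comparison and open points did not. Igfbp2 lay near -10.7 in both comparisons with primary cells and Igfbp1 at 6.38 in mHep against eHep.

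Other genes of the pathway were described from 8 lists. Between mHep and eHep, 2 of 12 genes raised by FOXO1 or held down by insulin in liver passed, both higher, with a list median of 1.84 against -0.10 over all genes, of which 1.38% were called higher. Hepatocyte markers moved the same way, 5 of 8 tested being called higher with a median of 6.82, and their part in these values was not tested. The 2 list genes that passed were Igfbp1 itself and G6pc, the glucose 6-phosphatase of gluconeogenesis. G6pc rose by 6.69 ± 0.77 in the fit (limma adjusted p = 0.0190). With dim readings raised to the background limit of their array the rise was at least 92.2-fold, a value that this p does not test. Of the other 7 lists none had a gene that passed. Among the ligands only Igf1 was bright enough to test, with a difference of -4.83 ± 0.98 (adjusted p = 0.0814) and changes of -7.29 in 129S1-No2, -5.28 in C57B6-No1 and -1.92 in 129S1-No1. The widest differences among binding protein proteases were those of the thrombin gene F2 (5.28 ± 1.33, adjusted p = 0.136) and of Mmp7 (4.49 ± 1.22, adjusted p = 0.161). Receptor substrates and adaptors (16 tested, median -0.25) and the PI3K, AKT and mTOR branch (24 tested, median 0.06) had no wider difference than -1.01 in Dok1 and 1.23 in the kinase subunit gene Pik3ca. The growth hormone axis (8 tested) held 2.23 ± 0.78 in Onecut1 (adjusted p = 0.266), and the lysosomal sorting partners of Igf2r (15 tested, median -0.32) held -1.59 ± 0.45 in the adaptor gene Gga2 (adjusted p = 0.178). Of 6 other proteins with an IGFBP-type domain, Kazald1 had 1.43 ± 0.51 (adjusted p = 0.267).

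Against primary cells, both ligand complex genes tested were lower in culture. The counts of these lists stand beside 5.61% of all genes higher and 9.4% lower in eHep, and 4.02% higher and 5.97% lower in mHep, and beside hepatocyte markers of which 9 of 9 were lower in eHep, whose part in them was not tested. Here and in the next paragraph, folds given as at least set dim readings to no less than the background limit of their array. The adjusted p beside such a fold belongs to the difference without that step and does not test the fold. Igf1 fell 304-fold in eHep (-8.25 ± 1.38, adjusted p = 0.0110) and at least 7283-fold in mHep (-13.08 ± 1.38, adjusted p = 0.00364). Igfals, which encodes the subunit that holds IGF and the Igfbp3 protein in the large serum complex, fell at least 464-fold in eHep (adjusted p = 0.00826) and at least 502-fold in mHep (adjusted p = 0.0129). The growth hormone axis list also holds Igf1 and Igfals, which are counted again there. In that list 4 of 9 genes were lower in eHep and 3 of 9 in mHep, among them the receptor gene Ghr (-6.64 ± 1.19, adjusted p = 0.0144, and -4.95 ± 1.19, adjusted p = 0.0487). Grb10, an adaptor that dampens the insulin and IGF1 receptors, rose 33.9-fold in eHep (adjusted p = 0.00604) and 23.2-fold in mHep (adjusted p = 0.0104). Of 16 substrates and adaptors tested 2 were higher in each medium, the other being Dok1, and 1 was lower in eHep.

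Among the binding protein proteases and their inhibitors, 2 of 11 were higher and 2 lower in eHep, and 1 was higher and 1 lower in mHep. Plat, the tissue plasminogen activator, was at least 54.3-fold higher in eHep (adjusted p = 0.00322) and at least 105-fold higher in mHep (adjusted p = 0.00277), while the kallikrein gene Klk1 was at least 32.8-fold and at least 34.9-fold lower. Of the other proteins with an IGFBP-type domain 4 of 6 were higher in eHep, Igfbp7 among them, and 2 of 6 in mHep. Ccn2, the connective tissue growth factor, was at least 657-fold higher in eHep (adjusted p = 0.00213) and at least 323-fold in mHep (adjusted p = 0.00305), and Ccn4 at least 26.1-fold and at least 13.4-fold. Of 12 FOXO1 or insulin genes 4 were lower in eHep and 0 in mHep, with G6pc at least 6581-fold lower in eHep (adjusted p = 0.00850). None of the 24 genes of the PI3K, AKT and mTOR branch and none of the 15 lysosomal sorting genes passed limma's test in either medium. Among the sorting genes the widest difference in eHep was -3.17 ± 0.92 in Nagpa (adjusted p = 0.0662).

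**Figure D4:**
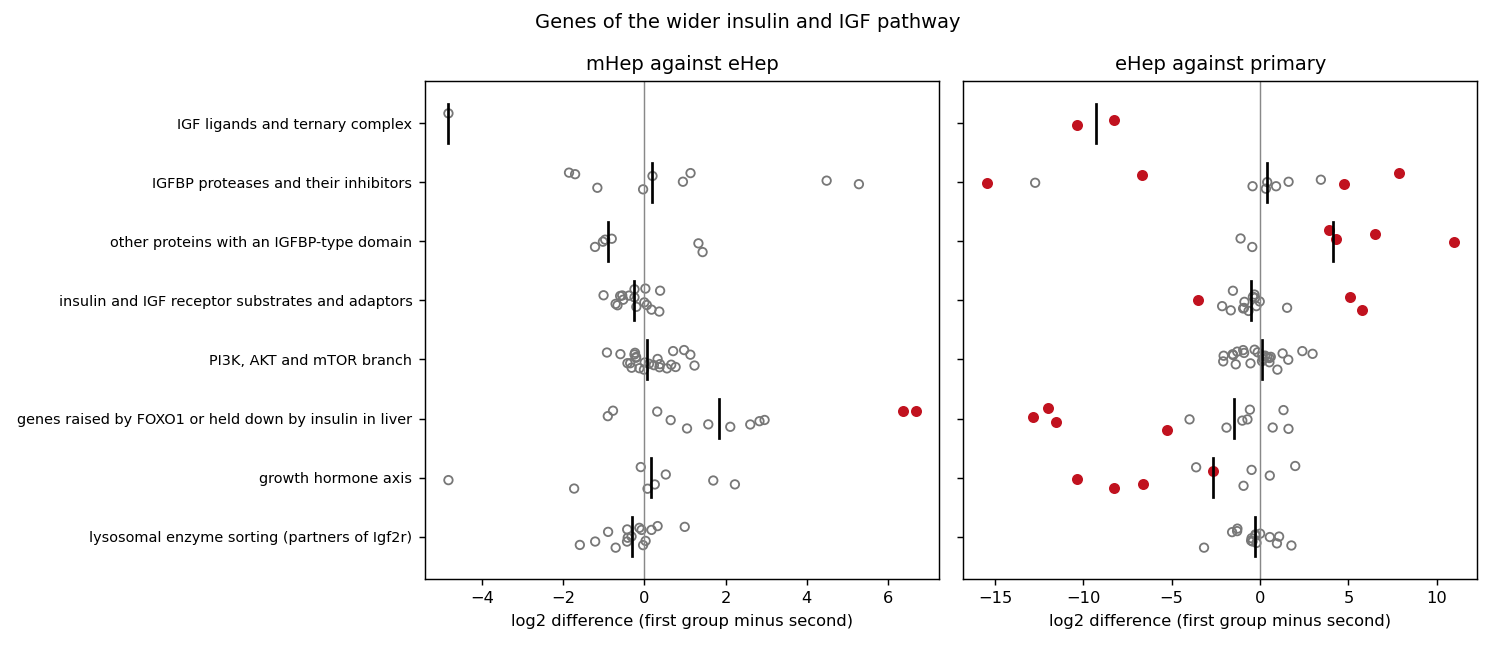
Log2 difference of each gene tested in the 8 pathway lists, for mHep against eHep (left) and eHep against primary (right). Filled points passed the rule of the comparison, and black bars are list medians. G6pc and Igfbp1 were the only genes that passed on the left.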

How the data were processed

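Gene expression was read on 15 Agilent 1-colour arrays, and the 10 genes and the gene lists were chosen with earlier results of these data known. Per the file headers, Cy3 scans were read with Feature Extraction 10.7.1.1 or 10.7.3.1, with probes placed in mm9, and the processed signal used here is an intensity that is background-subtracted but not scaled between arrays. The value table deposited by the authors holds log2 values whose scaling is not given in the sources used here. Its columns followed the log2 processed signal of their array with r from 0.972 to 0.9999, and it was used as an alternative. Of the 43379 spots, control spots aside, repeats were averaged, leaving out those called outliers, into 41174 probes without a saturated reading.

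From each log2 signal its array's 75th percentile was subtracted, and the brightest probe stood for a gene. Testing required readings well above background throughout the arrays of 2 or more of 3 mice in a medium or, against primary cells, on that array. limma 3.58.1 (R 4.3.3, data.table (1.17.8)) fitted mHep against eHep on 6 means with mouse as a block, the primary array beside the same means, and 12 single arrays of 129S1-No1 and C57B6-No1. P-values were adjusted by Benjamini-Hochberg over all genes tested at a threshold of 0.05. Folds given as at least set dim readings to no less than the background limit. This limit is the lowest signal of an array called well above background. Some dim probes read above it, so these folds are not strict bounds. The adjusted p beside such a fold comes from the readings as measured and does not test the fold. The mouse pairs the media by the labels, and deviations of the same mouse in both media correlated at 0.397, 0.563 and 0.539, against at most 0.0109 between different mice. These deviations are from the mean of only 3 mice, so positive values for the same mouse push those between different mice down. The contrast is thus partly built in. Both arrays of 129S1-No2 also shared the earlier scan. No 2 arrays held identical values. The named genes were all members, from each list up to 4 that passed between media and up to 2 against primary cells, or up to 2 with the widest difference where none passed, and the 3 genes most correlated with each member. One result that this rule names is not reported here. The fit was tested on simulated data. Alternatives covered background correction, scaling, filters, probe choice, moderation, blocks, scans and left-out mice or arrays. Plotting used Python 3.11.15, pandas 2.3.3 and matplotlib 3.10.9.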

Additional observations from a re-analysis of the deposited data

Results flagged for a closer look

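Of 20 groups of 7 arrays examined for an array far from the rest, 3 had one, where chance gives about 1 in 20 for independent arrays, which these arrays of 3 mice are not. Igf1r read 1.69 on eHep array 2-3 of C57B6-No1, against -0.33 to 0.45 on the other 6 eHep arrays. Igfbp2 read -6.78, a dim reading, on the eHep array of 129S1-No2, against -3.27 to -2.69 on the others. Igfbp3 read 0.94 on the mHep array of 129S1-No2, the array whose source name is that of eHep cells, against -2.28 to -1.07 on the others. The hepatocyte marker sum of that array was 357 times the 75th percentile. It was 1.69 to 28.9 times on the eHep arrays and 367 to 1558 times on the other mHep arrays. The 3 outlying arrays all belong to the earlier scan.

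The change from eHep to mHep differed between 129S1-No1 and C57B6-No1 for Igfbp3 by 2.95 and for Insr by 2.21 on the log2 scale, by limma's test of the difference itself. Each mouse stands for its strain alone in this test.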

How the results depend on the processing

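The number of members that passed was recounted under each alternative. Between mHep and eHep it was 1 and became 0 with quantile normalization, the value table, scaling on the probes detected on all arrays, and no replicate block for the mouse, and 4 (Igfbp1, Igfbp3, Igfbp7 and Insr) with 14 arrays as samples, with mouse alone, mouse and slide, or mouse and title number as a replicate block. In the other comparisons that same-number replicate block gave 6 members in place of 4 within 129S1-No1, 6 in place of 3 within C57B6-No1 and 4 in place of 2 for the difference of the changes. The labels link same-numbered arrays by the number alone, but the 2-3 arrays of both media also shared a slide and the earlier scan. Deviations of same-numbered arrays correlated at 0.598, -0.198 and 0.679 for 2-1, 2-2 and 2-3 of C57B6-No1. In 129S1-No1 they correlated between -0.186 and -0.0761. Between eHep and primary cells the count was 4, and 1 to 6 when a mouse was left out, the 1 without C57B6-No1. Between mHep and primary cells it was 2, and became 4 with quantile normalization and the value table, 1 with the mean of all probes, 1 with dim readings raised (added after the data were seen), 5 with the 6 arrays of C57B6-No1, 4 with the arrays of the earlier scan, and 0 to 2 when a mouse was left out, the 0 without C57B6-No1. The difference of the changes had 2, and 1 with normexp, no filter or slide as a block, and 1 to 7 without single arrays, the 7 without mHep array 2-3. Within C57B6-No1 the count was 2 to 5 without single arrays, the 5 without mHep array 2-3. The cause of these shifts was not tested.

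Over all genes, the count between media was 201 higher and 66 lower, 94 and 16 with quantile normalization (85.5% higher against 75.3%), 96 and 9 on detected probes (91.4% higher), 354 and 167 with median scaling, 138 and 38 with normexp, 2 and 0 without the mouse block, and 1935 and 3089 with 14 arrays. Against primary cells, the share of calls that were higher was 37.4% for eHep and 40.2% for mHep, and 56.8% and 61.5% with quantile normalization, 48.2% and 51.4% with median scaling, 47.7% and 53.9% on detected probes and 29.5% for mHep with normexp. The median over all genes went from -0.189 and -0.335 to 0.324 and 0.234, 0.276 and 0.147, and 0.280 and 0.247 under these 3 scalings. Median and detected-probe scaling shift all genes alike, but quantile normalization does not: it gave 7.02 for Igf1r and -9.24 for Igfbp2 in eHep, and -0.41 for Insr in mHep.

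Members that changed sign had not passed. For mHep against eHep, Igfbp2 was 0.076 with normexp, 0.035 on detected probes, 0.013 in the earlier scan and -0.63 to 0.39 when a mouse was left out, with 0.094 without mHep array 2-3. Igf1r was -0.011 with normexp, -0.18 with the mean of its probes, -0.42 in the earlier scan, -0.42 to 0.27 when a mouse was left out and as low as -0.11 without an array. Igfbp6 against primary cells was -1.23 in eHep and -0.63 in mHep with normexp, and -1.18 and -0.49 with dim readings raised. Insr in mHep against primary was 0.15 with median scaling, 0.25 on detected probes, 0.19 with the earlier scan and -0.61 to 0.010 when a mouse was left out. Igf2r there was -0.17 with the arrays of C57B6-No1 and -0.0052 to 0.30 when a mouse was left out. Within 129S1-No1, Igfbp4 was 0.21 with quantile normalization and the value table and -0.17 to 0.092 without an array. Within C57B6-No1, Igf2r was 0.14 with slide as a block, Igf1r -0.79 to 0.033 without an array and Igfbp2 -0.64 to 0.27. In the difference of the changes, Igf2r was -0.13 with normexp and -0.88, Igfbp6 0.50 and Igfbp1 -0.81 with slide as a block, while without an array Igf2r was -0.41 to 0.58 and Igfbp1 -0.11 to 1.02.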
